A study of Danio rerio with 16 samples.

Results

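Macrophages sorted together with RBI-derived and with CHT-derived neutrophils were compared after caudal fin transection. The members were chosen by measured values. Barcodes with at least 1000 UMIs, 300 to 7500 genes and at most 10% mitochondrial UMIs were taken as macrophages when lyz made up less than 1% of their UMIs and when 6 macrophage genes (mfap4, mpeg1.1, marco, fgl2a, lgals3bpb and c1qb) together had at least 3 UMIs. By this rule 230 of 1629 barcodes were macrophages in the RBI-derived cut library (14.1%, 95% interval 12.5 to 15.9), and 1001 of 2925 in the CHT-derived cut library (34.2%, 32.5 to 36.0). Among the barcodes of all 4 libraries within these limits, 7599 in number, these are 1231 cells.

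Macrophages are phagocytes that patrol tissues, clear dying cells and microbes and are among the first cells to reach a wound. There they release cytokines such as Il1b and Tnfa and chemokines that draw neutrophils, and later they turn to factors such as Il10 that damp the response. In zebrafish embryos a first wave of macrophages arises near the rostral blood island and spreads over the yolk and head, and later macrophages arise in the caudal hematopoietic tissue.

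The embryos carried Tg(mpx:Dendra2), a transgene in which the mpx promoter drives the photoconvertible protein Dendra2, strongly in neutrophils and weakly in macrophages. In every group Dendra2 was photoconverted in the head at 34 and 44 hpf, so that red cells (here RBI-derived) are enriched in cells from the rostral blood island, and green cells (here CHT-derived) in cells from the caudal hematopoietic tissue. The colour thus gives the place of a cell at photoconversion, and for macrophages its link to a site of origin was not measured in these libraries. In the cut groups the fin was transected at 54 hpf, in the normal groups it was left intact, and all groups were dissociated 3 h later (57 hpf). By the paper, 350 embryos were cut and 350 were left uncut, and red and green cells were sorted separately from each of these pools. Both colours of a state thus came from the same embryos. For loading, 7000 red or 16000 green cells were used.

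Each condition was read as 1 library, so that no value has a replicate and no test between conditions could be made. UMIs were summed over the macrophages of a library and scaled to a common total (CPM), and differences are given as the log2 ratio of CPM, RBI-derived cut over CHT-derived cut. The 95% intervals cover counting error only, not the spread between cells, embryos or libraries. A gene is counted as differing when the ratio is at least 2-fold, which is a rule of size. The normal libraries, with 44 RBI-derived (3.68% of 1196 barcodes) and 550 CHT-derived macrophages (29.7% of 1849), give the background in uncut embryos.

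The labels call all sorted cells neutrophils. In the barcodes chosen here some macrophage markers outside the rule were abundant. The gene lygl1 (a goose-type lysozyme) had 3557 CPM in RBI-derived cut and 4850 in CHT-derived cut, and si:dkey-5n18.1 had 1452 and 1612. Other markers of that list were low, as irf8 with 33 and 242 UMIs, csf1ra with 66 and 248, cd74a with 2 and 14, and timd4 with 3 and 7. The neutrophil gene mpx, which encodes myeloperoxidase, had 89 and 244 UMIs, or 90.6 and 44.5 CPM. In barcodes of the same libraries with lyz at 1% or more and fewer than 3 macrophage UMIs it had 3174 and 2396 CPM. The genes of the rule describe the choice only: mfap4 had 1234 and 2026 CPM, fgl2a 1015 and 1203, marco 276 and 303, mpeg1.1 244 and 182, lgals3bpb 181 and 224, c1qb 19.4 and 19.5, and lyz 1219 and 1662. Just inside the limit, with 3 or 4 UMIs of the 6 genes, lay 14 RBI-derived cut and 31 CHT-derived cut cells. Just outside, with 1 or 2, lay 15 and 175.

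CHT-derived cells were read more deeply. The median was 4168.5 UMIs and 1307 genes per RBI-derived cut macrophage, and 5349 UMIs and 1555 genes per CHT-derived cut macrophage. Summed over cells this gave 981899 and 5485360 UMIs. Low genes therefore rest on few UMIs in RBI-derived cut. The libraries held 7409098 to 17303744 UMIs in all. Free RNA, read from barcodes of 10 to 100 UMIs through 9 erythroid genes, would make up 1.35% of the UMIs of RBI-derived cut and 5.23% of those of CHT-derived cut macrophages. Through 5 neutrophil genes the same estimate is 6.81% in RBI-derived cut and higher in CHT-derived cut. Where a CPM that free RNA would give is stated below, it uses the erythroid estimate. No cell barcode was a macrophage in both cut libraries, and 1 was shared by CHT-derived cut and RBI-derived normal.

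Across all genes, macrophages of both colours were much alike after the cut. Of 6219 genes with at least 50 UMIs over both libraries, 94.2% lay within 2-fold and the median log2 ratio was -0.04. In RBI-derived cut 83 genes (1.33%) were at least 2-fold higher and 278 (4.47%) at least 2-fold lower, 5.8% in all. The counting interval lay apart from 0 for all 83 higher genes but for only 210 of the 278 lower ones. Depth and the minimum of 50 UMIs favour the higher genes here. Near that minimum a 2-fold lower gene has too few UMIs in RBI-derived cut for its interval to clear 0. The contrast is thus no sign that the higher genes are better supported. The interval lay wholly past 2-fold for 3 higher and 40 lower genes. The shares of 1.33% and 4.47% over all genes stand beside the counts of every list below, also where they are not repeated. The 4.47% includes genes whose interval reaches 0. Most of these genes are low: of 1513 genes with at least 500 UMIs, 2 were higher and 17 lower. Those 2 were mmp9, a gelatinase of the matrix, and fabp11a, a fatty acid binding protein. Of the 17 lower genes 7 encode proteins of skeletal muscle, and the other 10 included tnfa, the chemerin receptor gene cmklr1, the tissue factor gene f3b and the claudin gene cldni.

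**Figure D1:**
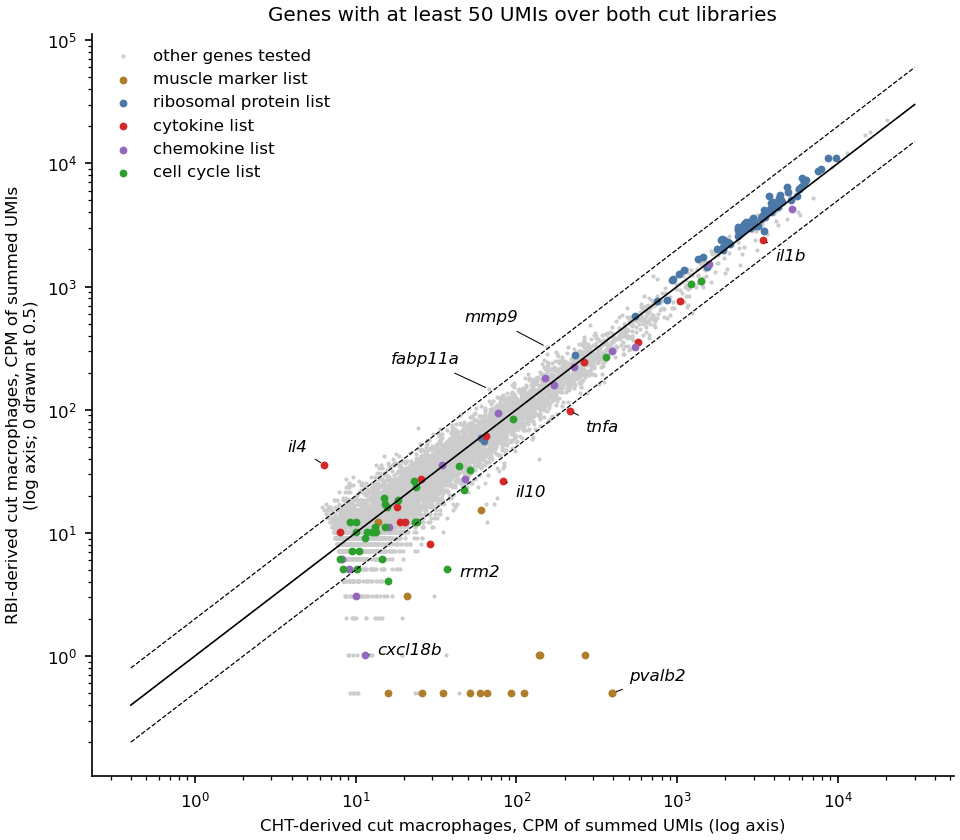
CPM of summed UMIs in RBI-derived cut (vertical) against CHT-derived cut macrophages (horizontal), both on log axes, for 6219 genes, with 5 gene lists in colour. The solid line marks equal levels, the dashed lines 2-fold, and genes without a UMI in RBI-derived cut are drawn at 0.5. Most genes lie between the dashed lines, muscle genes lie far below, and tnfa, il10 and rrm2 lie below the lower line.

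The genes furthest below 1 are muscle genes, whose UMIs lay largely in a few cells and which were also read in free RNA. Among the 12 genes with the lowest ratio 11 were on the muscle list, and the remaining gene, myl1, encodes a muscle myosin light chain. The parvalbumin gene pvalb2 had no UMI in RBI-derived cut and 2169 UMIs in CHT-derived cut (395 CPM), at least 129-fold higher against a floor of 3 counts over the library. Of its UMIs 83.3% came from a single cell. The 23 muscle genes summed to 40.7 CPM in RBI-derived cut and 1918 in CHT-derived cut, against 54.5 and 159 in the normal libraries, and 2 of 1001 CHT-derived cut cells held 77.6% of those UMIs. In free RNA the same genes reached 12038 CPM in CHT-derived cut and 625 CPM in RBI-derived cut. When 1 RBI-derived cut and 31 CHT-derived cut cells with more UMIs of another cell type's markers than of macrophage markers were left out, 79 of 6071 genes were higher (1.3%) and 235 lower (3.87%). The single genes given below with a ratio kept their direction in that comparison.

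Markers of other cell types were also read for the remaining lists. Of 10 neural genes tested 9 were at least 2-fold lower in RBI-derived cut (median -1.58), against 4.47% of all genes. Without the cells just named 3 of 6 were lower, against 3.87%. The neural list summed to 89.6 CPM in RBI-derived cut and 258 in CHT-derived cut. At least 2-fold lower were also 15 of 16 muscle, 2 of 5 epidermis, 1 of 7 erythroid and 1 of 6 progenitor genes, and neither of the single genes tested for endothelium and mesenchyme. Among 22 macrophage markers outside the rule 1 was lower (cmklr1), with a median of 0.03. The part of these cells and of free RNA in the differences of other genes was not tested beyond the values given.

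Of 14 cytokine genes tested, 3 were at least 2-fold lower in RBI-derived cut macrophages (il11b, il10 and tnfa), against 4.47% of all genes, and 1 was at least 2-fold higher (il4), against 1.33%. The other 10 lay within 2-fold, and 11 of the 14 had a ratio below 1, with a median log2 ratio of -0.49 against -0.04 over all genes. For tnfa, which encodes an early inflammatory cytokine, the level was 97.8 CPM in RBI-derived cut and 215 CPM in CHT-derived cut, and 57.7 and 53.5 CPM in the normal libraries of the same colours. CHT-derived cut thus stands alone at the high end. The log2 ratio was -1.14 (-1.45 to -0.83), from 96 UMIs in 50 cells and 1178 UMIs in 384 cells. In the normal libraries the log2 ratio of tnfa between colours was 0.11 (-0.67 to 0.80), from 18 and 278 UMIs.

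For il10, the gene of an anti-inflammatory cytokine, the level was 26.5 CPM in RBI-derived cut and 82.4 in CHT-derived cut, a log2 ratio of -1.64 (-2.27 to -1.07). It had no UMI in RBI-derived normal (44 cells) and 3.27 CPM in CHT-derived normal. Both cut libraries are therefore above both normal ones, with CHT-derived cut highest. The interleukin gene il11b had 8.15 and 29.2 CPM, and a ratio of -1.84 (-3.08 to -0.83) from 8 and 160 UMIs.

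The most abundant cytokine genes showed smaller differences in the same direction. These genes and others given with a ratio within 2-fold were in part chosen after their values were seen. For il1b, which encodes the main form of interleukin 1 in fish, the level was 2385 CPM in RBI-derived cut and 3407 in CHT-derived cut, and 1064 and 1353 in the normal libraries. The log2 ratio was -0.51 (-0.58 to -0.45) after the cut and -0.35 (-0.51 to -0.19) without it. The gene csf3b, of a cytokine that mobilises granulocytes, had 351 and 575 CPM after the cut (-0.71, -0.88 to -0.55), and 179 and 189 CPM without it, where 1 cell held 48.2% of the RBI-derived UMIs. For tnfb the values were 757 and 1047 CPM after the cut, and 333 and 494 CPM without it. The growth factor gene hbegfb was at 243 and 263 CPM, a ratio of -0.11 (-0.32 to 0.09), both far above the normal levels of 67.3 and 49.8 CPM.

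The exception was il4, which is both on the cytokine and on the neutrophil list. It had 35 UMIs in each cut library, which is 35.6 CPM in RBI-derived cut and 6.38 in CHT-derived cut (log2 ratio 2.48, lower bound 1.76). Free RNA would give 12.1 and 4.94 CPM of it. All its UMIs would need a free RNA share of 4.00% in RBI-derived cut and 6.76% in CHT-derived cut. Both are below the estimates through the 5 neutrophil genes, of which il4 is one, and above those through the erythroid genes. The estimate differs widely between neutrophil genes. Through lect2l alone it is 23.4% in RBI-derived cut and 25.8% in CHT-derived cut, and through npsn alone 3.15% and 4.70%. The il4 shares are above those of npsn, so whether free RNA could give all il4 UMIs depends on the genes used. After thinning to 1000 UMIs per cell, 2.61% of RBI-derived cut macrophages had an il4 UMI. The share was 19.9% in 146 barcodes without macrophage genes and with little lyz, so that it is within background. Those barcodes passed the same limits on UMIs, genes and mitochondrial UMIs, and 47.9% of them had a UMI of the neural list gene hmgb3a. They may thus hold other cell types. Here and below, within background means only a share no higher than in such barcodes, and the source of the UMIs was not tested.

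Of 15 chemokine genes tested 12 had a ratio below 1, with a median of -0.40. At least 2-fold lower were 2 of them, against 4.47% of all genes, and none was higher by that much. For cxcl8a, which encodes the main chemokine that attracts neutrophils, the level was 322 CPM in RBI-derived cut and 551 in CHT-derived cut, against 189 and 201 in the normal libraries. The log2 ratio was -0.78 (-0.95 to -0.61) after the cut and -0.09 (-0.50 to 0.29) without it. Levels thus lay close together in uncut embryos and apart after transection. The same order held for ccl20a.3, with 27.5 and 47.8 CPM (-0.80, -1.43 to -0.22) and no UMI or 8.85 CPM in the normal libraries, where 12 RBI-derived cut cells held its UMIs. The 2 genes past 2-fold were low: cxcl18b, another neutrophil attractant, had 1 and 63 UMIs (log2 ratio -3.50, -8.82 to -0.96), and ccl39.2 had 3 and 55 (-1.71, -4.04 to -0.09). For cxcl18b the thinned shares of none and 1.1% lie below the 2.74% and 5.03% of barcodes without macrophage genes, and are within background.

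Other abundant chemokines differed less between colours. The macrophage chemokine ccl34a.4 had 4232 and 5170 CPM after the cut and 2851 and 3127 without it. Its relative ccl34b.1 had 1510 and 1571 CPM (-0.06, -0.14 to 0.02) after the cut, and 1823 and 1297 CPM without it. The chemokine gene cxcl11.1 had 221 and 228 CPM (-0.05, -0.26 to 0.16), while the normal libraries differed, with 135 CPM in the red and 12.3 in the green library. Its UMIs lay in few cells, 15 in RBI-derived cut, and 1 cell held 88.1% of those in RBI-derived normal.

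Among chemokine receptors 2 of 8 were at least 2-fold lower in RBI-derived cut, against 4.47% of all genes, and both from few UMIs. For ccr2, the receptor by which monocytes are recruited in mammals, the counts were 6 and 109 UMIs, or 6.11 and 19.9 CPM (log2 ratio -1.70, -3.18 to -0.53). The normal libraries were at 6.41 and 5.77 CPM, the former from 2 UMIs with an interval of 0.776 to 23.1 CPM that includes the CHT-derived cut level. For ccr12b.2 the levels were 4.07 and 15.7 CPM (-1.94, -3.85 to -0.54). The receptor genes ccr9a (243 CPM in each) and cxcr3.2 (178 and 161) differed little.

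**Figure D2:**
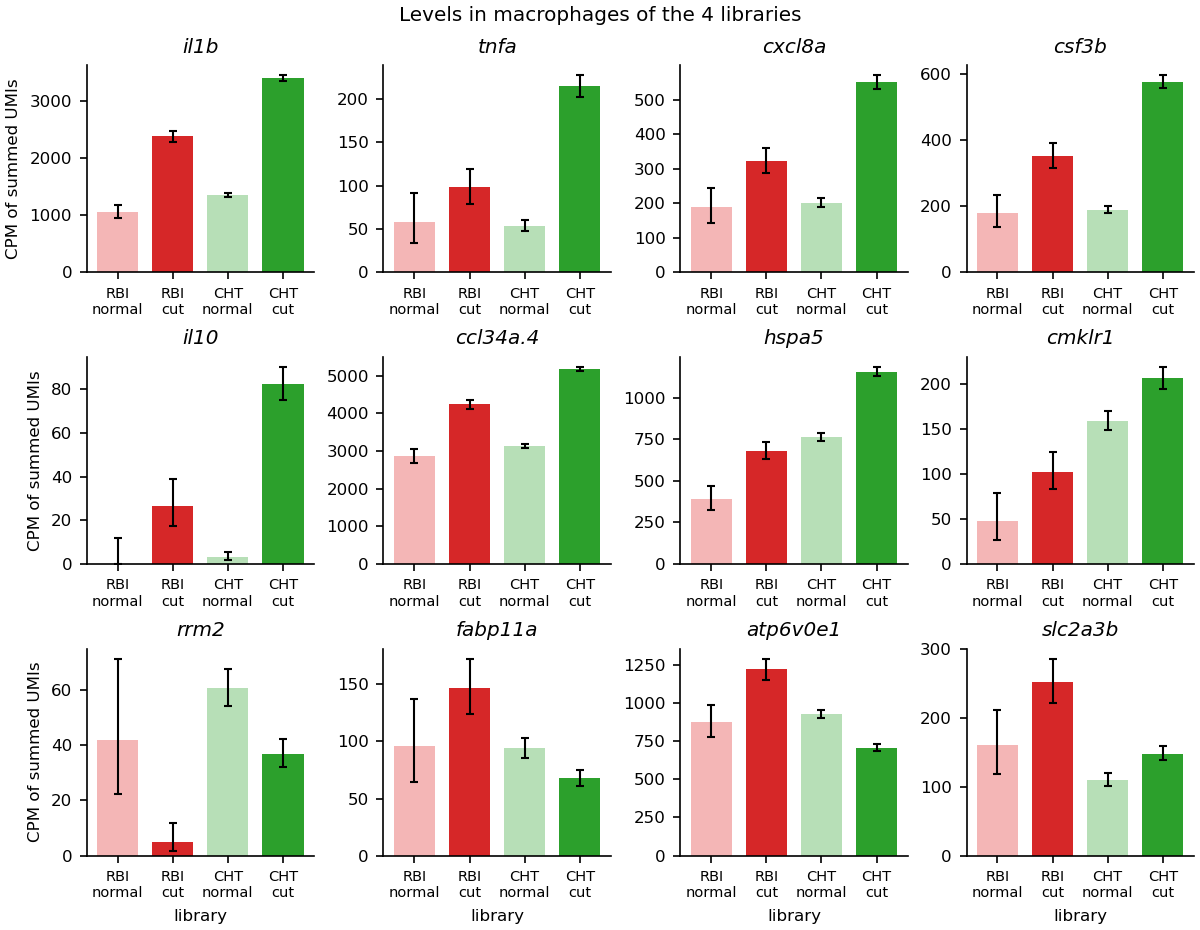
CPM of summed UMIs (vertical axes, linear and starting at 0) of 12 genes in macrophages of the 4 libraries, with 95% Poisson intervals as bars. CHT-derived cut is highest for il1b, tnfa, cxcl8a, csf3b, il10, ccl34a.4, hspa5 and cmklr1, and RBI-derived cut is highest for fabp11a, atp6v0e1 and slc2a3b and lowest for rrm2.

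Genes of the NF-kB pathway, the transcription factor pathway that drives such cytokines, differed less. Of 20 genes 12 had a ratio below 1, 1 was past 2-fold lower (nfkbiz) and none higher, with a median of -0.22. The inducible regulator nfkbiz had 7 and 132 UMIs, or 7.13 and 24.1 CPM (-1.76, -3.10 to -0.67). The inhibitor genes nfkbiaa and nfkbiab, themselves targets of the pathway, were at 564 against 828 CPM (-0.55, -0.68 to -0.43) and 1278 against 1985 CPM (-0.64, -0.72 to -0.55). In the other direction lay tnfaip3, the gene of the inhibitor A20, with 134 and 95.3 CPM (0.50, 0.21 to 0.77), and relb with 177 and 124 CPM (0.52, 0.27 to 0.76). The genes of the pathway thus lay on both sides of equal levels.

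Immediate early genes, which respond to many stimuli including dissociation, had 1 of 35 past 2-fold lower, none past 2-fold higher and a median of -0.17. The lower gene was egr2b, with 4 and 75 UMIs (-1.75, -3.66 to -0.33), and junbb had 116 and 211 CPM (-0.86, -1.15 to -0.58). The junbb shares, 12.6% and 19.8% after thinning, are within background, since 43.8% and 26.7% of barcodes without macrophage genes had a UMI of it. Free RNA would give 1.37 and 10.9 CPM of junbb. Of 21 heat shock and chaperone genes 1 was past 2-fold lower (hsp90aa1.1, 5 and 73 UMIs) and the median was -0.29. An abundant member was hspa5, the chaperone gene of the endoplasmic reticulum, with 680 and 1157 CPM after the cut (-0.77, -0.88 to -0.65). Its normal levels were 391 and 762 CPM (-0.96, -1.24 to -0.70), so that RBI-derived cells were lower with and without the cut. Of 10 interferon genes none was past 2-fold, and ifitm1, which encodes an antiviral membrane protein, had 1827 and 2516 CPM against 634 and 643 in the normal libraries.

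Set against uncut embryos of the same colour, tnfa, cxcl8a, csf3b, il1b and tnfb were higher after the cut in both colours. Of 2483 genes with enough UMIs in RBI-derived cells 5.84% were at least 2-fold higher in cut than in normal and 1.45% lower, and of 7659 genes in CHT-derived cells 4.11% were higher and 4.92% lower. For tnfa the log2 ratio of cut over normal was 0.76 (0.03 to 1.58) in RBI-derived and 2.01 (lower bound 1.82) in CHT-derived macrophages. For cxcl8a it was 0.77 (0.36 to 1.19) and 1.45 (1.35 to 1.55), and for csf3b 0.97 (0.56 to 1.40) and 1.60 (upper bound 1.71). These 3 genes thus stood further above the uncut level in CHT-derived cells, a difference that was not tested. For csf3b a single cell held much of the UMIs of RBI-derived normal, as given above, so that its order may rest on that cell. For il1b the ratios, 1.17 (1.00 to 1.34) and 1.33 (1.29 to 1.37), have overlapping intervals, and for tnfb, at 1.18 and 1.08, RBI-derived cells had the higher value.

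Shares of cells with tnfa, il1b, csf3b, il10 or cxcl8a had the same order as the summed levels. With each cell thinned to 1000 UMIs, 7.83% of RBI-derived cut macrophages had a tnfa UMI (4.70 to 12.1) and 16.1% of CHT-derived cut ones (13.9 to 18.5), against 21.7% and 38.4% without thinning. In barcodes without macrophage genes and with little lyz, which had a median of 1524.5 and 2086 UMIs before thinning, the share was 2.74% and 0.347%. The 2.74% is 4 of 146 barcodes, and its interval of 0.751 to 6.87 overlaps that of the RBI-derived cut macrophages. For il1b the shares were 73.5% (67.3 to 79.1) and 83.9% (81.5 to 86.1), for csf3b 23.5% and 32.6%, and for il10 2.61% (0.963 to 5.59) and 7.09% (5.58 to 8.86). The il10 share in RBI-derived cut is close to the 1.37% of barcodes without macrophage genes. The cxcl8a shares, 21.7% (16.6 to 27.6) and 28.2% (25.4 to 31.1), have counting intervals that overlap. For il1b the share in barcodes without macrophage genes was 23.3% in RBI-derived cut and 6.24% in CHT-derived cut.

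At least 1 of tnfa, cxcl8a, il10 and csf3b was found in 38.3% of RBI-derived cut (32.0 to 44.9) and 55.1% of CHT-derived cut macrophages (52.0 to 58.3), and in 27.3% and 21.3% of the normal ones. At least 2 were found in 14.3% and 22.3%. Within the cells that had tnfa, cxcl8a was frequent in both libraries, in 12 of 18 RBI-derived cut (66.7%) and in 77 of 161 CHT-derived cut cells (47.8%). Among cells without tnfa these shares were 17.9% and 24.4%. Cells with both genes were thus seen in both colours, while the cells with any of the 4 genes were a smaller part of the RBI-derived cut macrophages. All 4 genes had lower summed levels in RBI-derived cut, as given above, so this order repeats those levels and is no separate evidence. The share with any of the 4 genes was not taken in barcodes without macrophage genes.

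**Figure D3:**
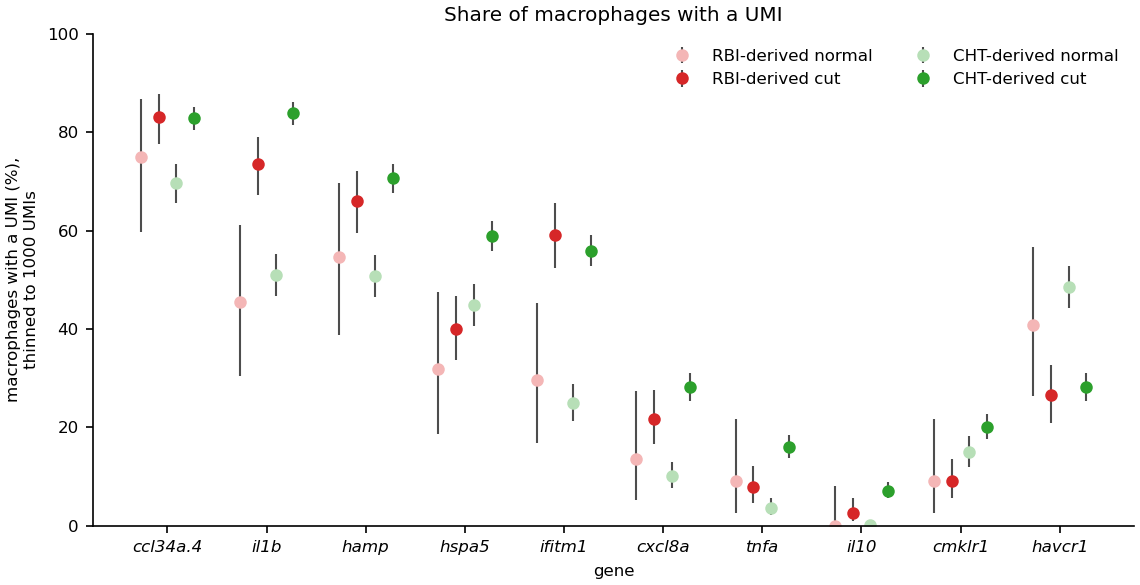
Percentage of macrophages with a UMI of each of 10 genes after thinning every cell to 1000 UMIs, in the 4 libraries, with exact (Clopper-Pearson) 95% intervals as bars. For il1b, hspa5, tnfa and cmklr1 the intervals of the cut libraries lie apart, with CHT-derived cut higher. For ccl34a.4, hamp, ifitm1, cxcl8a, il10 and havcr1 they overlap, for il10 only just.

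Genes for recognition, complement and uptake of dying cells had 13 of 26 ratios above 1, 1 past 2-fold lower and a median of -0.01. The one was cmklr1, whose product on macrophages binds chemerin and lipid mediators, with 102 CPM in RBI-derived cut and 207 in CHT-derived cut (-1.02, -1.33 to -0.72). Its normal levels were 48.1 and 159 CPM (a log2 ratio of -1.73), the former from 15 UMIs. By level CHT-derived cells thus had more of it in both states. The thinned shares were 9.13% (5.74 to 13.6) and 20.1% (17.6 to 22.7) after the cut. Without it 4 of 44 RBI-derived and 82 of 550 CHT-derived macrophages had a cmklr1 UMI, and 4 cells leave the order of these shares uncertain. The cmklr1 ratio after the cut lay just within 2-fold, between -0.97 and -0.99, in 5 alternatives. These were removal of barcodes with high doublet scores, TMM factors, no limit on lyz, at least 6 UMIs of the macrophage genes and at most 5% mitochondrial UMIs. The tetraspanin gene cd63 followed the same order, with 1396 and 2051 CPM after the cut and 1301 and 2319 without it.

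The phosphatidylserine receptor gene havcr1, which marks part of the macrophages, had 354 and 402 CPM after the cut and 458 and 687 without it. A havcr1 UMI was found in 26.5% of RBI-derived cut and 28.2% of CHT-derived cut macrophages, and a ccl34b.1 UMI in 35.2% and 39.4%. Both genes were found in 12.6% and 14.2%, and at least 1 of them in 49.1% and 53.3%. The counting intervals of the shares with at least 1 of them, 42.5 to 55.8 and 50.2 to 56.5, overlap. For cfp, the gene of the complement regulator properdin, the levels were 126 and 80.4 CPM (0.65, 0.35 to 0.94).

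Genes of lipid handling and resolution went both ways, with a median of -0.21. Of 18 genes 4 were past 2-fold lower (fabp7a, arg2, fabp3 and anxa1a), against 4.47% of all genes. Higher by that much was 1 (fabp11a), against 1.33%. Of the lower ones fabp7a and fabp3 are also on the neural list. Without the cells rich in another type's markers, fabp3 was at -0.58. The arginase gene arg2 had 23 and 319 UMIs, or 23.4 and 58.2 CPM (-1.31, -1.99 to -0.70). Its thinned shares, 2.61% and 5.09%, lie below the 15.8% and 5.72% of barcodes without macrophage genes and are within background, as were those of fabp7a and fabp3. Free RNA would give 4.36 and 8.85 CPM of arg2. For anxa1a, of an annexin that ends inflammation in mammals, there were 12 and 155 UMIs (-1.21, -2.19 to -0.36). The gene acod1, whose enzyme makes itaconate in activated macrophages, had 329 and 549 CPM after the cut (-0.74, -0.91 to -0.57), and 285 and 620 without it. In RBI-derived cut fabp11a was higher, with 147 and 68.0 CPM (1.11, 0.82 to 1.39) against 96.1 and 94.1 without the cut, and so was the cholesterol exporter gene abca1a, with 127 and 75.8 CPM (0.75, 0.45 to 1.04). One RBI-derived cut cell held 42.4% of the fabp11a UMIs, and with every cell weighing the same its ratio was 0.72.

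Lysosomal genes had 1 of 52 past 2-fold, lamp1a, with 15.3 and 40.3 CPM (-1.40, -2.26 to -0.65), and a median of -0.11. Against this stood atp6v0e1, a subunit of the proton pump, with 1220 CPM in RBI-derived cut and 708 in CHT-derived cut (0.78, 0.69 to 0.88), and 878 and 926 CPM in the normal libraries. After thinning 70.0% of RBI-derived cut (63.6 to 75.8) and 48.7% of CHT-derived cut macrophages (45.5 to 51.8) had a UMI of it, and 41.1% and 16.8% of barcodes without macrophage genes. RBI-derived cut thus stood above the other 3 libraries in level. In share it was highest by value, where RBI-derived normal had 59.1% and CHT-derived normal 58.9%. The RBI-derived normal share comes from 44 cells, so that the order of the RBI-derived shares is uncertain.

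The metalloproteinase gene mmp9, which neutrophils also express at a high level, had 322 and 155 CPM (1.05, 0.86 to 1.24), and 173 and 94.7 in the normal libraries. Free RNA would give 89.5 and 67.3 CPM of it, and the thinned share of 22.2% of RBI-derived cut macrophages lies below the 41.8% of barcodes without macrophage genes. This share is within background, and over the alternatives the ratio lay between 0.92 and 1.38, apart from 0.69 for UMIs per cell without scaling. The neutrophil list as a whole summed to 5673 CPM in RBI-derived cut and 6006 in CHT-derived cut without lyz. Past 2-fold were 3 of its 18 genes, mpx, il4 and mmp9, all higher in RBI-derived cut, against 1.33% of all genes. In RBI-derived cut a single macrophage took 4.37% of its UMIs from that list, the highest share. The transgene, Dendra2, had 1148 CPM in RBI-derived cut, 748 in CHT-derived cut, 1502 in RBI-derived normal and 809 in CHT-derived normal.

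Iron genes mostly lay within 2-fold, with 12 of 18 ratios above 1 and a median of 0.17 against -0.04 over all genes. The hormone gene hamp, which encodes hepcidin, was found in 66.1% (59.6 to 72.2) and 70.6% (67.7 to 73.4) of the cells, with 2061 and 2427 CPM against 1326 and 1325 without the cut. The ferritin gene fthl27 was the most abundant of the list, with 16867 and 14833 CPM. The iron exporter gene slc40a1 was the 1 of 18 past 2-fold, with 26.5 and 10.6 CPM (1.32, 0.60 to 2.02) from 26 and 58 UMIs, and 19.2 and 45.4 CPM without the cut. In CHT-derived cells it was lower after the cut than without it, and there the 1.3% of cells with a UMI after thinning lies below the 3.81% of barcodes without macrophage genes.

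Of 33 cell cycle genes tested 5 were past 2-fold lower in RBI-derived cut, against 4.47% of all genes, and none higher. The other 28 lay within 2-fold, 26 of the 33 ratios were below 1 and the median was -0.34. Without the cells rich in another type's markers 3 of 31 were past 2-fold lower and the median was -0.29. The gene rrm2, a subunit of the enzyme that makes DNA building blocks, had 5.09 CPM in RBI-derived cut, 36.8 in CHT-derived cut, 41.6 in RBI-derived normal and 60.4 in CHT-derived normal. The RBI-derived normal level came from 13 UMIs in 5 cells (interval 22.2 to 71.2 CPM), with 38.5% of them in 1 cell. After the cut rrm2 had 5 UMIs in 4 cells against 202 in 89 (-2.85, -4.49 to -1.61). After thinning 0.435% and 3.10% of the macrophages had an rrm2 UMI. Both shares are below the 11% and 18% of barcodes without macrophage genes and within background in that sense only. Free RNA would give 0.949 and 8.81 CPM of rrm2. The mitotic gene cdc20 had 4 and 87 UMIs (-1.96, -3.87 to -0.55), and the shares of cells with cdc20, mki67 or pcna were likewise below those in barcodes without macrophage genes in both libraries. The proliferation genes mki67 (23.4 and 23.9 CPM) and pcna (84.5 and 95.2 CPM) lay close together. At least 3 of the 41 cycle genes were found in 20.0% of RBI-derived cut (upper bound 25.8) and 26.9% of CHT-derived cut macrophages (24.1 to 29.7) after thinning, so that the counting intervals overlap.

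Of 83 ribosomal protein genes none was past 2-fold in either direction. The ratio was above 1 in 75 of them, with a median of 0.18 against -0.04 over all genes. The largest ratio was that of rpl38, with 5412 and 3732 CPM after the cut and 5827 and 3600 without it. Together they made up 314638 and 276180 CPM in the cut libraries, and 344899 and 282271 in the normal ones. Counted as UMIs per cell without any scaling, the list's median was -0.18 and that of all genes -0.40. Leaving out the scaling moves every log2 ratio by the same amount, so the order of these medians could not change. The lists of the respiratory chain (88 genes, median -0.09), glycolysis (21 genes, -0.04), eicosanoids (11 genes, -0.07), NADPH oxidase (6 genes, -0.19) and myeloid transcription factors (20 genes, 0.04) had no gene past 2-fold.

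Within those lists a few genes had intervals away from 0. The glucose transporter gene slc2a3b had 253 and 148 CPM (0.77, 0.56 to 0.98), the myeloid factor gene runx3 104 and 64.2 CPM (0.69, 0.36 to 1.02), and bach1b 182 and 114 CPM (0.68, 0.43 to 0.92). The helix-loop-helix inhibitor gene id2a lay in the other direction, with 88.6 and 166 CPM (-0.90, -1.24 to -0.58) and 83.3 and 85.0 without the cut. Its thinned shares, 7.39% and 14.8%, are below the 24.7% and 25.1% of barcodes without macrophage genes, within background. Free RNA would give 1.79 and 15.4 CPM of id2a. The master regulator genes spi1b (456 and 439 CPM) and cebpa (632 and 644 CPM) were level. Among 6 antigen presentation genes psme1 was past 2-fold lower, with 4 and 56 UMIs (-1.33, -3.25 to 0.11), an interval that includes 0.

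**Figure D4:**
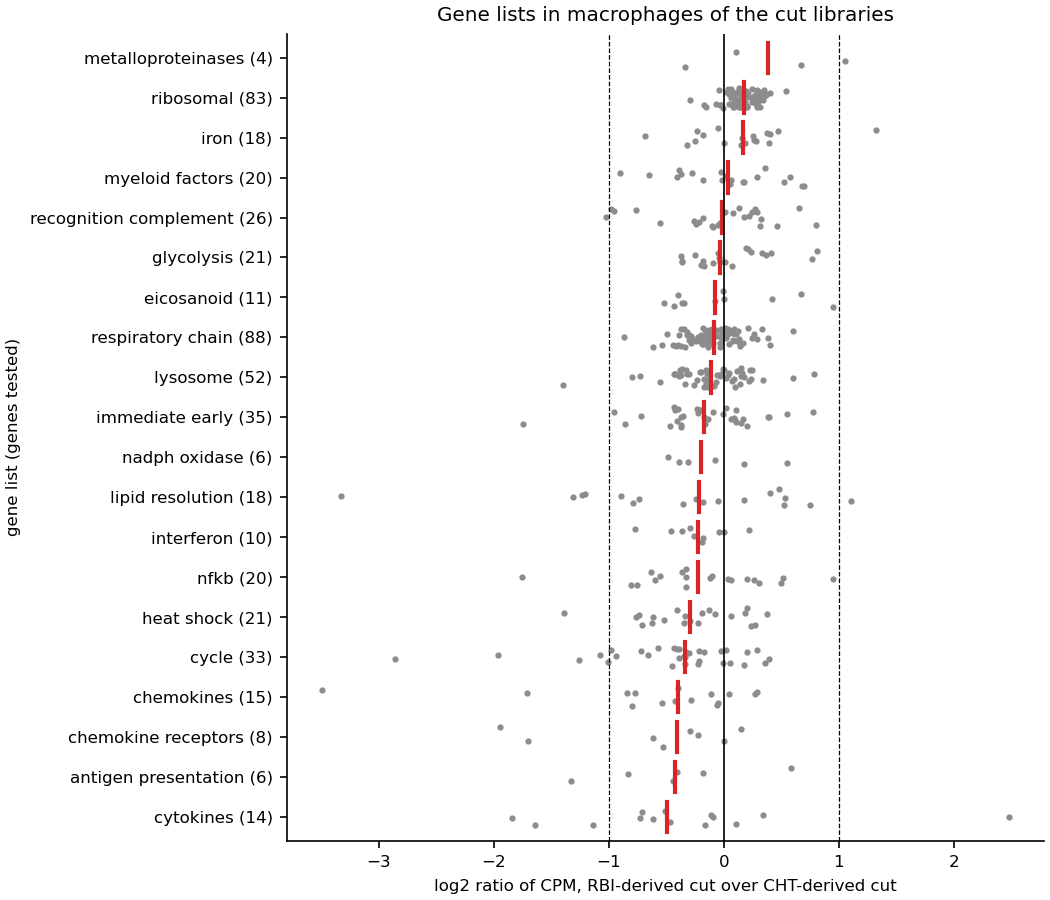
Log2 ratio of CPM, RBI-derived cut over CHT-derived cut (horizontal), of each tested gene (grey points) in 20 lists (rows, with the number of genes tested), with the median of each list in red. Dashed lines mark 2-fold. The medians run from -0.49 for cytokines to 0.39 for the 4 metalloproteinase genes, and no ribosomal gene lies past 2-fold.

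The 12 genes with the highest ratio among those with at least 100 UMIs were all low, with 28 to 70 UMIs in RBI-derived cut. The highest was the metallothionein gene mt2 at 1.53, but 52.9% of its 70 UMIs came from 1 of 7 cells. In the uncut embryos of the same colour it was at 852 CPM, and 1 cell held 62.8% of the UMIs. The next was the homeobox gene ved at 1.48 (0.90 to 2.04), with 41.8 and 14.9 CPM, of which free RNA would give 16.2 and 17.4 CPM. Its share of 3.48% in RBI-derived cut is below the 12.3% of barcodes without macrophage genes. Others were cdk13 (1.40, 0.78 to 2.00), a kinase gene, and the ion channel kinase gene trpm7 (1.21, 0.61 to 1.78).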

How the data were processed

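Cells of Tg(mpx:Dendra2) zebrafish embryos were sorted by colour and read by droplet single-cell RNA sequencing. For every barcode the authors deposited raw UMI counts of genes, as 1 matrix for each of 4 conditions, made with Cell Ranger 7.1.0 (matrix header) on GRCz11 (submitters' processing notes), with an annotation release not given in the sources used here. The 4 registered entries of a condition share its matrix and were counted as 1 library. The deposited counts were unfiltered, and the 517 symbols with several identifiers were summed, which left 25433 features.

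Barcodes had at least 1000 UMIs, 300 to 7500 genes and at most 10% mitochondrial UMIs. Macrophages were chosen as stated in the report, and no doublets were removed. UMIs were summed over cells and scaled to CPM. Genes with at least 50 UMIs over both cut libraries were compared, with the 7 genes of the rule left out, and a pseudocount of 0.5 where a count was 0. Intervals are exact 95% Poisson, Clopper-Pearson or conditional binomial intervals. Shares of cells were taken after thinning to 1000 UMIs. Free RNA was read from barcodes of 10 to 100 UMIs. Named genes were the 12 highest and 12 lowest with at least 100 UMIs, in each function list up to 4 genes with the largest ratio in either direction and at least 50 UMIs, the genes of the rule, Dendra2 and the 3 most abundant genes of each marker list, and 26 further genes were chosen after their values were seen. Members and lists (20 of function, 9 of markers) were chosen with earlier results of these data known, and kinase genes were removed from the ribosomal list after its values were seen. Alternatives changed the limits on UMIs, macrophage genes, lyz and mitochondrial UMIs, doublets (simulated doublet scores), shared barcodes, cells rich in other markers, scaling, cell weights, free RNA and the gene minimum. The unscaled values and the removal of cells rich in muscle or neutrophil UMIs were added after seeing the data. The calculations were tested on simulated data. Work was done in Python 3.11.15 (pandas 2.3.3, numpy 2.4.6, matplotlib 3.10.9, scipy 1.17.1 and scikit-learn 1.9.0), and edgeR 4.0.16 in R 4.3.3 for TMM factors only.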

Additional observations from a re-analysis of the deposited data

Results flagged for a closer look

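In 8 of the genes followed the cut and normal libraries differed in opposite directions in the 2 colours. Only genes whose 2 counting intervals lay wholly on opposite sides of equal levels were counted. The share of such genes among all genes was not determined, and 26 of the genes followed were chosen after their values were seen. Whether 8 is an unusual number is therefore not known. The values are log2 ratios of CPM, cut over normal, with 95% counting intervals, and the difference between colours was not tested. For atp6v0e1, a proton pump subunit gene, the ratio was 0.48 (0.28 to 0.67) in RBI-derived and -0.39 (-0.45 to -0.32) in CHT-derived macrophages. For the nucleoside phosphorylase gene pnp5a it was 0.46 (0.23 to 0.70) and -0.27 (-0.33 to -0.20). For ncf4, an NADPH oxidase subunit gene, it was 0.61 (0.14 to 1.11) and -0.17 (-0.31 to -0.03). For fabp11a it was 0.61 (0.03 to 1.23) and -0.47 (-0.67 to -0.27), with 42.4% of its RBI-derived cut UMIs in 1 cell, and for the ferritin gene fthl27 0.36 (0.31 to 0.41) and -0.03 (-0.05 to -0.02). The chemokine gene ccl34b.1 lay the other way, with -0.27 (-0.41 to -0.13) and 0.28 (0.23 to 0.32), and 1 RBI-derived normal cell held 23.0% of its UMIs there. The same held for ccl35.1, with -0.44 (-0.75 to -0.13) and 0.64 (0.54 to 0.74), where 1 RBI-derived normal cell held 62.7% of the UMIs, and for rpl38, with -0.11 (-0.18 to -0.03) and 0.05 (0.02 to 0.08). The RBI-derived normal library holds 44 macrophages.

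Barcodes with at least 3 UMIs of the macrophage genes but with lyz at 1% or more were left out of the report. There were 195 of them in CHT-derived cut (6.67% of barcodes within the limits, 5.79 to 7.63), 8 in the normal library of that colour, 6 in RBI-derived cut and none in its normal library. Those of CHT-derived cut had a median of 1345 UMIs, against 5349 in the macrophages, of 4.05% lyz and of 4 UMIs of the macrophage genes. Their mpx level was 1447 CPM, against 2396 in barcodes with lyz at 1% or more and fewer than 3 UMIs of the macrophage genes, and their mfap4 level 1213 against 53.8 CPM. The muscle gene pvalb2 was at 723 against 106 CPM.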

How the results depend on the processing

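Both colours of a state came from the same pooled embryos, but no paired analysis was possible because each condition was read as 1 library. For the same reason no replicate could be left out. The counts of genes past 2-fold, 83 higher and 278 lower in RBI-derived cut of 6219 genes, changed with thinning, the gene minimum and scaling. They were 24 and 104 with cells thinned to 1000 UMIs, 30 and 125 for genes with at least 100 UMIs, and 529 and 1370 for genes with at least 10 UMIs. In these settings the number of genes tested changed too, so the counts do not show whether the share past 2-fold changed. As UMIs per cell without scaling, over the same 6219 genes, the counts were 16 and 728, and the median of all genes moved from -0.04 to -0.40. The zinc finger gene zfx turned from 1.17 to -0.26 when cells were thinned, and the cause was not tested. Of 152 genes followed, 136 kept their sign in the 18 alternatives other than the unscaled one, as did 50 of the 51 past 2-fold. The alternatives with another gene minimum leave the ratio of each gene as it was, so they could not change a sign. The median kept its sign in 15 of 20 lists. The other 5 lists were chemokine receptors, glycolysis, iron, myeloid factors and recognition and complement. TMM factors were 0.985 and 1.01. Depth limits the low genes of RBI-derived cut, and 44 cells limit every value of RBI-derived normal.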
